A study of Drosophila melanogaster with 36 samples.

Results

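The proteasome is the barrel-shaped protease that degrades proteins tagged with ubiquitin. Its genes were taken from the deposited gene counts by symbol: Prosalpha and Prosbeta followed by a number, Rpt followed by a number and Rpn followed by a number. The rule found 47 of 17137 gene symbols. Of these, 32 name ordinary subunits and 15 carry an R or T after the number, which marks extra copies, several of them testis-type (T). Genes under other symbols are outside this rule, and Sem1, one of these, was listed with the assembly and associated genes. The 32 comprise 7 alpha ring, 7 beta ring, 6 ATPase ring, 4 other base and 8 lid genes, and all 47 matched the Ensembl annotation of the assembly BDGP6.54, which uses dm6 coordinates.

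The cells were S2R+, a semi-adherent Drosophila melanogaster line of embryonic origin (the sample titles read S2, the cell line label S2R+), in 12 groups of 3 libraries. Within every set, cells given 0.5 mM sodium arsenite for 3 h (stress) and cells washed and kept for 3 h more in fresh medium (recovery) were compared with untreated cells (control). The WT control titles read control_3h, and no title says that controls were washed or kept longer. Arsenite, added time and fresh medium therefore cannot be told apart in recovery against control. The sets were Rin RNAi, directed against rasputin (rin), which encodes a stress granule protein, Mock RNAi, unmodified cells (WT), and a Click-iT set, titled Bead, where Click-iT is a method that tags and captures newly made transcripts. The labels name a poly(A) library kit throughout, and give poly(A) RNA as the molecule of the first 3 sets (called poly(A) sets here) and total RNA as that of the Click-iT set. The double-stranded RNA, its duration and the Click-iT pulse are not given in the labels, and nothing there says that replicates came from separate cultures, so p-values may measure technical spread only.

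The core particle is a stack of outer alpha rings, which gate the entrance, and inner beta rings, which hold the protease sites. The regulatory particle caps it: its base holds a ring of ATPases (Rpt) that unfold substrates together with large scaffold and ubiquitin-binding subunits, and its lid removes the ubiquitin chain. Because the subunits work in fixed proportions, their genes are often regulated together, and in flies the transcription factor cnc raises them when proteasome activity falls short.

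Each WT library held 6121664 to 8940613 gene counts. Mock and Rin libraries held 6897154 to 11211712, and Click-iT libraries 169760 to 2746277. The knockdown target rin had 391, 280.2 and 204 CPM (counts scaled by TMM to a common library size, the usual CPM unit) in Rin control libraries, against 895, 912 and 896 CPM in Mock control libraries, a log2 difference of -1.63 ± 0.21 (edgeR adjusted p = 0.00130). The Rin and Mock libraries did not overlap, and Rin control replicate 1 kept more rin than the other two. Of 9 markers of the hemocyte-like identity of these cells, 8 had a mean of at least 1 CPM in WT control and in Mock control, the exception being He. Their summed level was nonetheless 1050.5 CPM in Mock control and 4782 CPM in WT control. Most of this difference in the sum lay in Pxn, at 564 CPM in Mock control and 3760 CPM in WT control. The difference was not confined to Pxn. Hml averaged 13.8 CPM in Mock control and 299 CPM in WT control, and Col4a1 6.36 and 69.1 CPM. The means of vkg, srp, Ppn and eater were also lower in Mock control, while those of fz and He were higher.

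Untreated cells held proteasome transcripts at similar and high levels. Divided by exonic length, the median of 31 subunit genes in WT control was 128 CPM per kilobase, against 19.5 over the 7592 tested genes with a known length, which placed it at the 93.5th percentile. Prosalpha2, an alpha ring gene, was highest at 311 ± 9.15 CPM per kilobase (SD, n = 3), and Rpt6, an ATPase, followed at 293 ± 12.2 with overlapping libraries. Rpn8, a lid subunit that pairs with the deubiquitinating enzyme Rpn11, was lowest at 73.0 ± 3.07. The whole list therefore spanned 4.26-fold. In this order 23 of the 30 neighbouring pairs had overlapping libraries, and the pairs that did not lay mostly at the top, where Rpt6, Prosbeta6, Rpt1, Rpn7 and Prosbeta7 each stood clear of the next gene. Role medians were close, from 116 CPM per kilobase for the beta ring to 144 for the ATPase ring.

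**Figure D1:**
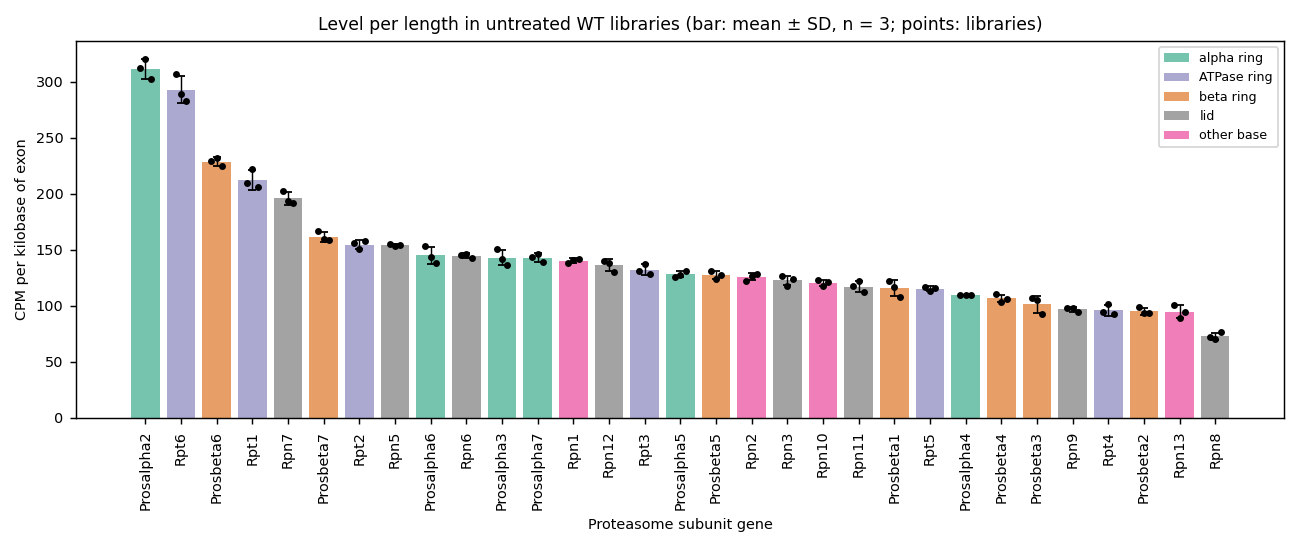
Level of 31 proteasome subunit genes in untreated WT cells, as CPM per kilobase of exon, ordered from high to low and coloured by role. Bars and error bars are the mean ± SD of 3 libraries and points are the libraries. Most genes lie near the median of 128, with Prosalpha2 and Rpt6 highest and Rpn8 lowest.

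Prosalpha1 had 0 counts in all 36 libraries. So did CG30382, which RefSeq lists as the copy Prosalpha1R, so no level of this subunit could be read from these counts and 31 subunit genes were tested.

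In WT cells most proteasome genes moved little under arsenite, and the few that fell most were regulatory particle genes. In stress against control, 9 of 31 rose and 6 fell (edgeR quasi-likelihood test, Benjamini-Hochberg adjusted p under 0.05), against 30.3% higher and 30% lower among the 8123 genes tested. The members' log2 fold changes ran only from -0.32 to 0.21. Their median size of change was 0.12, against 0.27 over all genes tested. Every one of the 31 had a 95% interval within 1.5-fold of no change, as did 5071 of all 8123 genes. In recovery against control 6 rose and 9 fell, against 35.2% and 33.5% of all genes, between -0.40 and 0.18.

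These splits depended on scaling. With libraries scaled to total counts instead of TMM, 3 rose and 11 fell in WT stress, against 23.4% and 40.4% of all genes, and 0 rose and 23 fell in WT recovery, against 24.7% and 50.4%, while the median of all genes moved to -0.09 and -0.18 on the log2 scale. The members' own median was then -0.04 in stress and -0.21 in recovery. Leaving out WT control replicate 3 reduced the 6 genes that rose in recovery to 3.

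In the alpha ring 3 of the 6 genes tested rose in stress, against 30.3% of all genes, 2 rose in recovery, against 35.2%, and none fell. Prosalpha2 had 287, 295 and 278 CPM in control, 333, 323 and 332 CPM in stress and 342, 313 and 319 CPM in recovery libraries. Neither treated group overlapped the control, and the log2 fold change was 0.20 ± 0.04 in stress and 0.18 ± 0.04 in recovery (± SE; edgeR adjusted p = 3.56e-05 and 1.13e-04). Prosalpha3, with 146, 138 and 133 CPM in control, 143, 138 and 141 in stress and 139, 134 and 138 in recovery, had overlapping groups throughout. Prosalpha6 had 164, 153 and 148 CPM in control, 156, 172 and 159 in stress and 149, 149 and 152 in recovery, with both treated groups overlapping the control and recovery below stress.

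In the beta ring 1 of 7 rose in both comparisons, below those shares, and none fell. That gene, Prosbeta7, had 203, 194 and 193 CPM in control, 213, 241 and 226 in stress and 227, 207 and 221 in recovery, for log2 fold changes of 0.21 ± 0.04 and 0.15 ± 0.04. Both treated groups lay above the control. Prosbeta1, which carries the caspase-like protease site, had 104, 99.5 and 92.0 CPM in control, 96.0, 121 and 106 in stress and 91.1, 97.2 and 93.9 in recovery, overlapping the control both times. Prosbeta3, a ring member without a protease site, had 97.7, 96.1 and 84.9 CPM in control, 97.0, 96.1 and 90.5 in stress and 94.6, 87.2 and 89.2 in recovery. Its groups overlapped too.

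The ATPase ring was mixed, with 3 of 6 higher and 1 lower in stress, against 30.3% and 30% of all genes, and 1 higher and 2 lower in recovery, against 35.2% and 33.5%. Rpt3 had 204, 214 and 199 CPM in control, 223, 223 and 229 in stress and 226, 218 and 224 in recovery, above the control both times. Rpt5, another ATPase, had 191, 184 and 188 CPM in control, 164, 181 and 171 in stress and 170.0, 160.0 and 169.8 in recovery, below the control both times. The log2 fold changes in stress were 0.13 ± 0.04 for Rpt3 and -0.13 ± 0.04 for Rpt5 (edgeR adjusted p = 0.00533 and 0.0116). Rpt4, at 138, 149 and 135 CPM in control, 154, 159.7 and 161 in stress and 156, 149.9 and 144 in recovery, rose in stress and did not pass in recovery (adjusted p = 0.0764).

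Rpn1 and Rpn2, the large scaffolds of the base, fell in every poly(A) set. Rpn1 (chr3L:19915051-19918160, plus strand) had 420.1, 429 and 433 CPM in WT control, 339.8, 341 and 349 in stress and 337, 331 and 329 in recovery. Rpn2 (chr3R:29153524-29157255, plus strand) had 418, 432 and 439 CPM in WT control, 343, 358 and 358 in stress and 324, 325 and 330.2 in recovery. For both genes each treated library lay below each control library. The log2 fold change of Rpn1 was -0.32 ± 0.04 in stress and -0.36 ± 0.04 in recovery (edgeR adjusted p = 6.37e-10 and 1.22e-11), and that of Rpn2 was -0.29 ± 0.04 and -0.40 ± 0.04. Rpn13, a ubiquitin receptor of the base, went the other way, with 169, 149.7 and 158 CPM in control, 181, 194 and 176 in stress and 172, 171 and 169 in recovery. Its stress call held in 13 of 13 alternative fits, but its recovery call in 4 of 13, with adjusted p up to 0.30. For recovery the authors' deposited table gives 0.108.

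In the lid 1 of 8 genes rose and 3 fell in WT stress, where 30% of all genes fell, and 1 rose and 5 fell in recovery, where 33.5% fell. Rpn5 (chr3R:5789493-5791569, plus strand), a lid scaffold, had 295, 291 and 293 CPM in control, 242, 243 and 248 in stress and 214, 226 and 226 in recovery, without overlap. Its log2 fold change was -0.26 ± 0.04 in stress and -0.40 ± 0.04 in recovery. Rpn6, which clamps the lid to the core, was the lid gene that rose, with 282, 285 and 278 CPM in control, 307, 310.3 and 303 in stress and 317, 305 and 315 in recovery. Rpn11, the enzyme that cuts off the ubiquitin chain, fell by 0.28 on the log2 scale in recovery, and is named here after its values were seen.

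Between stress and recovery in WT cells, 29 of 31 estimates were negative and small. Recovery against stress gave by edgeR 0 genes higher and 8 lower, against 18.2% and 8.33% of all genes, with log2 fold changes from -0.20 to 0.03. An unadjusted p under 0.05 was reached by 13 of 31, and DESeq2 also called 0 higher. The lowest was Prosbeta1, at -0.20 ± 0.06 (edgeR adjusted p = 0.0103). This count was unstable: it was 4 without WT stress replicate 2, 3 without WT recovery replicate 1 or 2, 5 without WT recovery replicate 3, 2 with DESeq2 and 26 with scaling to total counts.

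**Figure D2:**
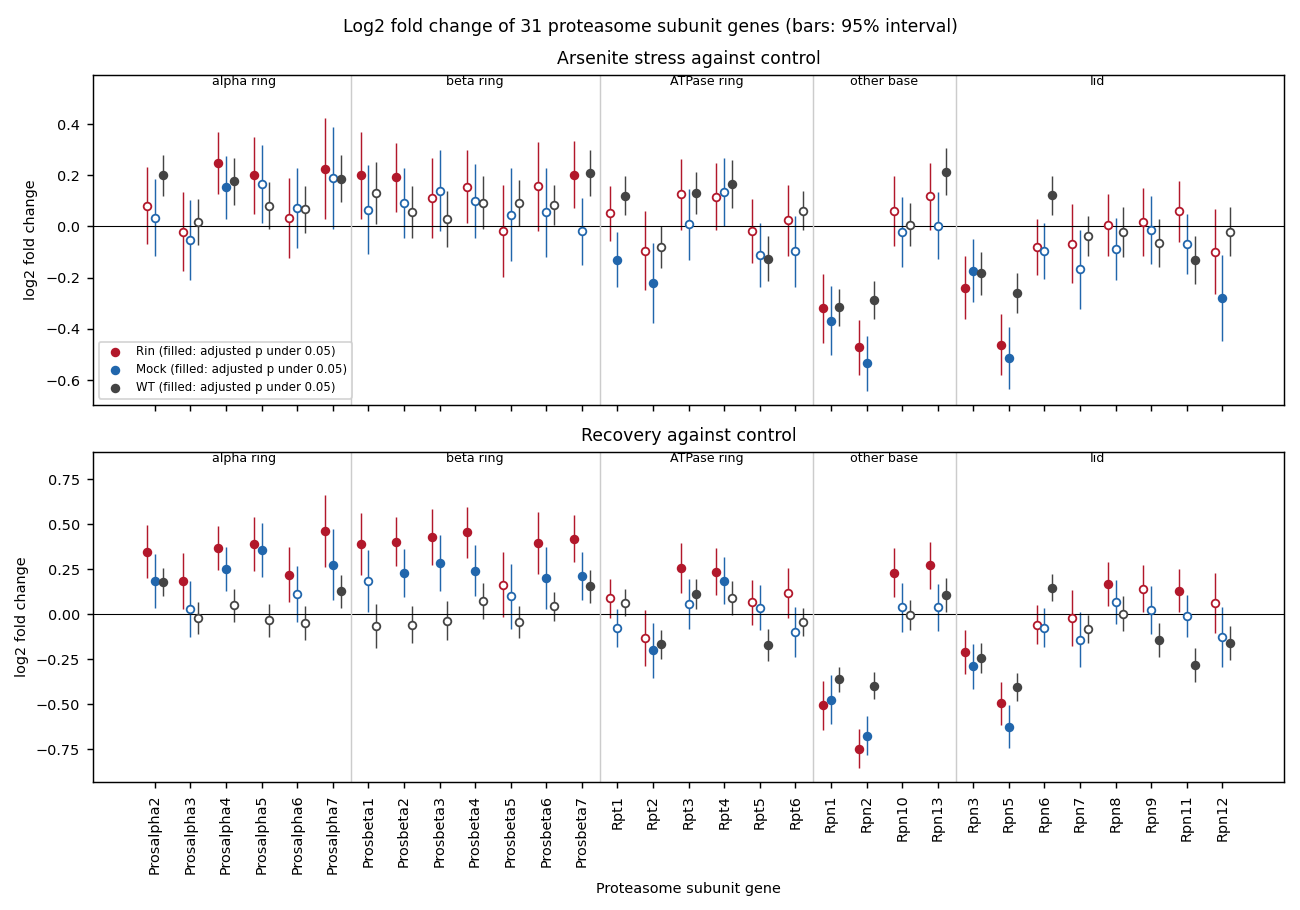
Log2 fold change of 31 proteasome subunit genes against control, by role, for Rin, Mock and WT cells, in arsenite stress (upper) and recovery (lower). Bars are 95% intervals and filled points have an edgeR adjusted p under 0.05. Rpn1, Rpn2, Rpn3 and Rpn5 lie below 0 in all 6 comparisons, and in recovery the core particle genes of Rin cells lie above 0.

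Some RNAi libraries stood apart from their replicates. Over genes, the chi-square per degree of freedom between Mock stress replicate 2 and the others was 27.7 and 20.2, against 1.92 between those, and its core particle sum was 2021 CPM, against 1672 and 1754. Mock control replicate 1 (10.6 and 8.86, against 1.57) had a core sum of 1834 CPM, against 1691 and 1651, and Rin recovery replicate 1 (6.38 and 5.52, against 1.65) one of 2300.3 CPM, against 2133 and 2143. Rin stress replicate 2 (4.94 and 7.55, against 2.36) had a core sum of 1976 CPM, against 1835 and 1825. Mock recovery replicate 1 (4.96 and 3.62, against 2.60) had one of 2059 CPM, against 1945 and 1948. In each case the library that stood apart had the highest core sum of its group. The part of this in the core particle counts was not tested beyond leaving each out.

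The RNAi sets showed the same 4 regulatory particle genes lower, and in recovery most core particle genes were higher. In Rin stress 6 of 31 rose and 4 fell, against 30.4% and 30.8% of 8707 genes. In Mock stress 1 rose and 7 fell, against 29% and 29.8%. In recovery, 18 rose and 4 fell in Rin cells, against 35.2% and 34.3%, and 10 rose and 5 fell in Mock cells, against 33.1% and 32.8%. Rpn1, Rpn2, Rpn3 and Rpn5 were lower in all 4 of these comparisons and in both WT comparisons with control.

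Core particle genes made up most of the risers in recovery, with 12 of 13 in Rin cells and 9 of 13 in Mock cells, against 3 of 13 in WT cells. The difference between the Mock and WT responses was tested in a joint edgeR fit of the 27 poly(A) libraries, added after seeing the data. It called 11 of 31 members in recovery, 8 higher in Mock, against 19.7% of all genes, and 3 lower, against 23.3%. In stress it called 0 higher, against 10.9%, and 5 lower, against 16.3%. Mock treatment and culture cannot be told apart in this difference. Prosbeta3 had 98.0, 98.7 and 102 CPM in Rin control, 104, 119 and 99.6 CPM in stress and 142, 129 and 132 CPM in recovery. In Mock cells it had 106, 93.4 and 86.3 CPM in control, 98.2, 109 and 108 in stress and 121, 117 and 110.1 in recovery. Recovery libraries lay above control libraries in both sets, with log2 fold changes of 0.43 ± 0.07 in Rin and 0.28 ± 0.07 in Mock (edgeR adjusted p = 2.99e-05 and 0.00224). Summed over its 13 tested genes, the core particle averaged 2192 ± 94.0 CPM in Rin recovery and 1713 ± 50.2 CPM in Rin control (SD, n = 3 each). The corresponding sums in Mock cells were 1984 ± 65.2 CPM in recovery and 1725 ± 96.3 CPM in control.

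The regulatory particle sum was 3534 ± 81.7 CPM in Rin recovery, against 3717 ± 55.0 CPM in Rin control, and 3310 ± 77.5 CPM in Mock recovery, against 3737 ± 84.6 CPM in Mock control. Rpn2 had 423, 423 and 429 CPM in Rin control, 292, 326 and 302 CPM in stress and 247, 256 and 257 CPM in recovery. Its Mock values were 405, 411 and 413 CPM in control, 282, 285 and 281 in stress and 257, 266 and 247 in recovery. Groups did not overlap with control, and the log2 fold change in recovery was -0.75 ± 0.05 in Rin and -0.67 ± 0.05 in Mock. Rpn5 had 238, 233 and 258 CPM in Rin control, 173, 186 and 171 in stress and 178, 175 and 165 in recovery, again without overlap. In Mock cells it had 248, 248 and 228 CPM in control, 167, 167 and 174 in stress and 158, 159.9 and 153 in recovery.

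Scaling to total counts removed most of the rises. Rin recovery then gave 2 higher and 12 lower, against 20.8% and 50.3% of all genes, with the median of all genes at -0.25. Rin stress gave 0 and 12, against 20.1% and 43.6%, with that median at -0.16. For Mock the counts were 0 and 18 in recovery, against 20% and 49%, at -0.23, and 0 and 19 in stress, against 19.4% and 43.3%, at -0.16. Single libraries also mattered, those named above among them. Without Rin recovery replicate 1, 15 rose and 4 fell in Rin recovery, and without Mock control replicate 1, 11 rose and 4 fell in Mock recovery. Without Mock stress replicate 2, 9 fell in Mock stress. The 1 riser of Mock stress became 3 without Mock control replicate 1 or Mock stress replicate 1, 2 without Mock stress replicate 3, and 0 without Mock control replicate 2 or 3 or Mock stress replicate 2. The 10 risers of Mock recovery became 6 without Mock control replicate 3 or without Mock recovery replicate 1, the 7 that fell in Mock stress became 4 without Mock stress replicate 1, and the 6 risers of Rin stress became 2 without Rin control replicate 1 and 1 without Rin stress replicate 2.

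**Figure D3:**
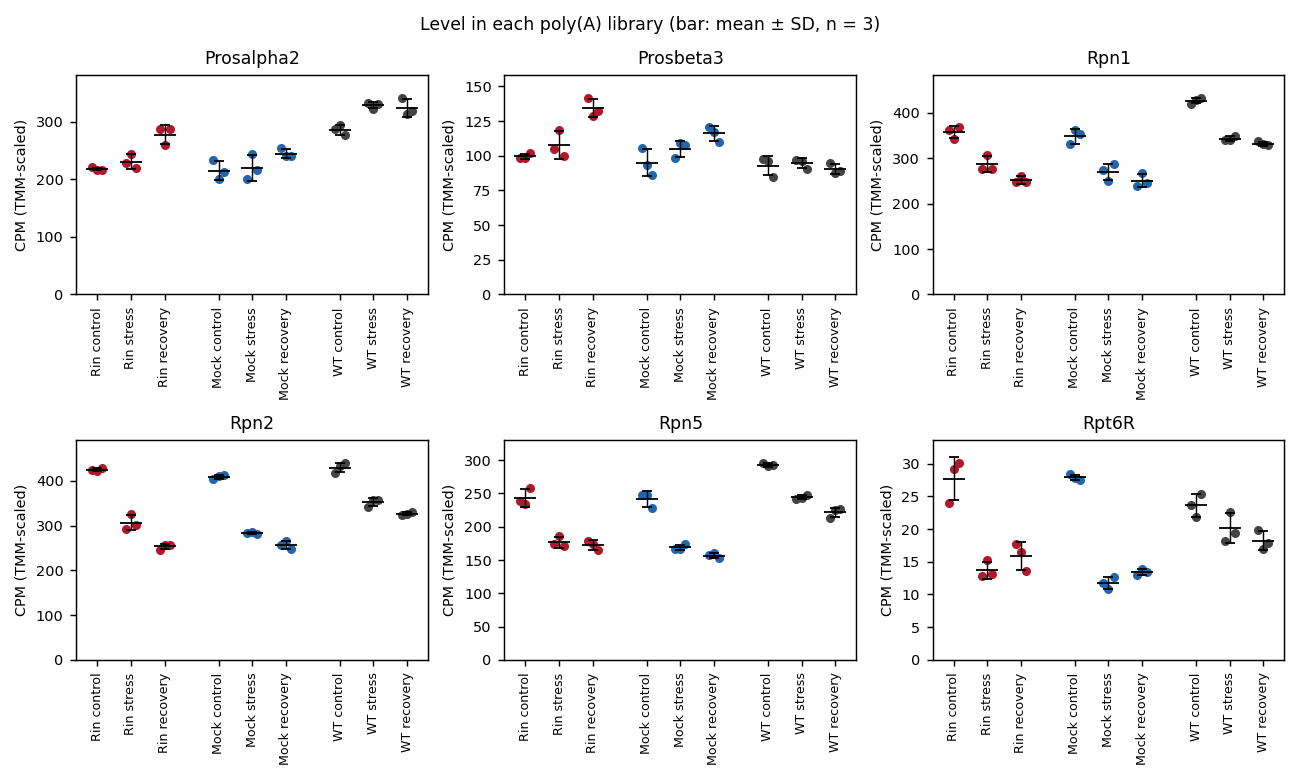
CPM of 5 proteasome subunit genes and the copy Rpt6R in each poly(A) library, with Rin, Mock and WT sets from left to right and control, stress and recovery within each. Points are libraries and bars are the mean ± SD of 3. Rpn1, Rpn2 and Rpn5 lie lower in stress and recovery than in control in every set, and Rpt6R drops most in the RNAi sets.

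Between stress and recovery 8 of the 13 core particle genes rose in Rin cells. Recovery against stress gave 9 of 31 higher and 2 lower in Rin cells, against 14.2% and 16.2% of all genes, and 1 higher and 0 lower in Mock cells, against 5.02% and 4.31%. The single Mock gene was Prosbeta7, at 0.23 ± 0.06 (edgeR adjusted p = 0.0267). In Mock cells 8 of 31 had an unadjusted p under 0.05, and DESeq2 called 1 lower. Without Rin stress replicate 1 or 3, or Rin recovery replicate 1, the Rin risers numbered 4, 3 and 3, and without Mock stress replicate 2 the Mock risers numbered 8, and 0 without any other Mock stress or recovery library. The 2 that fell in Rin cells, Rpn1 and Rpn2, were 1 without Rin stress replicate 2 or Rin recovery replicate 1 or 3, and with the length offset described next neither direction held a call.

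The direction of change went with transcript length. Across the 31 genes, Pearson's correlation between the log2 fold change in recovery and the log2 exonic length was -0.86 in Rin, -0.81 in Mock and -0.53 in WT cells, while over all tested genes with a length it was -0.29, -0.20 and 0.00. The points share libraries and are no independent replicates. Without Rpn1 and Rpn2, which at 3041 and 3412 bases are the 2 members over 3 kb, the members' values were -0.73, -0.68 and -0.26. Core particle genes are short, with a median of 973 bases in the alpha and 944 in the beta ring, so role and length go together. With a length-dependent offset for each library, chosen after seeing the data, 6 rose and 8 fell in Rin recovery, against 35.5% and 33.7% of all genes under that offset. The counts were 3 and 11 in Mock recovery, against 34.3% and 33.1%, and 8 and 9 in WT recovery, against 37.1% and 32.7%. The part of length in the core particle rise was not tested beyond this offset.

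**Figure D4:**
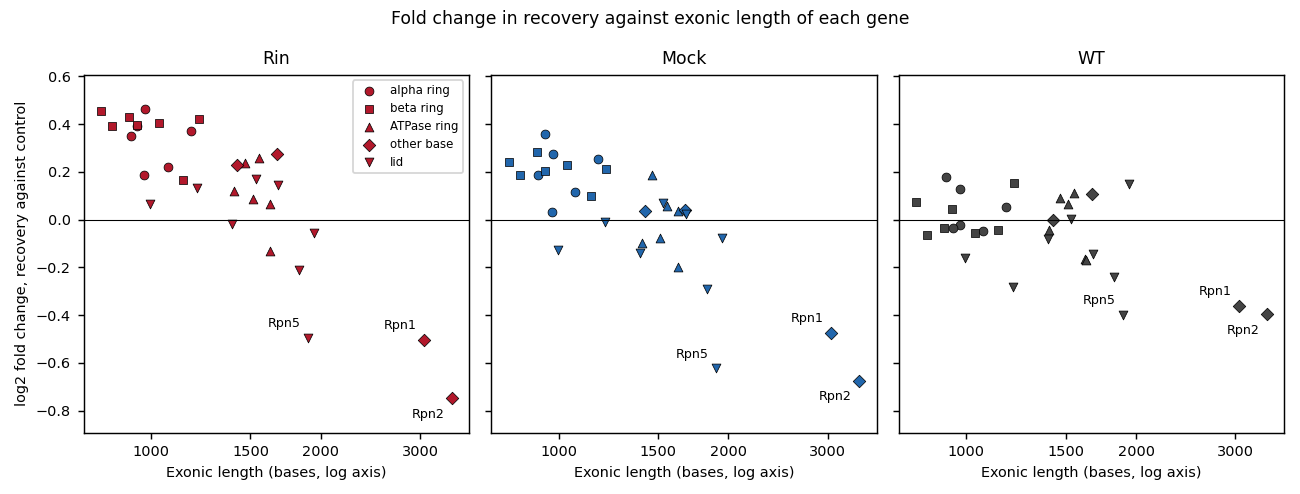
Log2 fold change in recovery against control of 31 proteasome subunit genes, plotted against exonic length on a log axis, for Rin, Mock and WT cells. Symbols mark the role. Short core particle genes lie highest and Rpn1, Rpn2 and Rpn5 lowest in Rin and Mock cells, with a weaker slope in WT cells.

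Whether loss of rin altered proteasome transcripts was asked in each treatment. No subunit gene passed the test between Rin and Mock cells in control, stress or recovery (0 of 31 by edgeR each time), against 0.0459%, 0.161% and 0.126% of all genes. An unadjusted p under 0.05 was reached by 0, 4 and 10 of them, and DESeq2 called 0, 0 and 1. All 31 had 95% intervals within 1.5-fold in every treatment. In recovery 30 of 31 had a higher estimate in Rin cells, with a median log2 difference of 0.12 against -0.00 over all genes, and the lowest adjusted p was 0.117. In 19 of 31 every Rin recovery library lay above every Mock recovery library, as in 9.34% of all genes tested. Without Rin recovery replicate 1 the 10 genes at an unadjusted p under 0.05 became 2, and without Mock stress replicate 2 the 4 in stress became 12. The responses themselves, Rin minus Mock, also gave 0 of 31 in stress and in recovery by edgeR and by DESeq2, against 0% of all genes by edgeR, with 2 and 6 at an unadjusted p under 0.05.

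In the Click-iT set no subunit gene passed the test in stress, in recovery or between them (0 of 31 by edgeR and by DESeq2 on its 9 libraries), against 0% of 6558 genes. An unadjusted p under 0.05 was reached by 4, 0 and 8 genes. Replicates varied widely, with a biological coefficient of variation of 42.8%, against 6.49% for Mock with Rin and 2.85% for WT libraries. Along the first principal component of the set, Click-iT stress replicate 2 lay at -42.7, against 7.47 and 65.5 for the others, within the control range of -52.6 to -42.0, and Click-iT recovery replicate 2 lay at -19.0, against 79.6 and 54.1. Leaving out either also gave 0 calls. In stress 1 of 31 intervals lay within 1.5-fold. Estimates in stress were nonetheless mostly negative, in 29 of 31 genes, with a median log2 fold change of -0.43 against -0.01 over all genes. In recovery 17 were positive and 14 negative against control, with a median of 0.04 (-0.27 without Click-iT recovery replicate 2), and against stress 27 were positive, with a median of 0.44. In 9 of 31 every stress library lay below every control library, as in 7.91% of all genes. Prosalpha3, one of these, had 33.6, 44.8 and 32.4 CPM in Click-iT stress, against 76.5, 61.7 and 86.4 CPM in Click-iT control, for a log2 fold change of -1.01 ± 0.29 (edgeR adjusted p = 0.320). The core particle sum averaged 619 ± 38.8 CPM in Click-iT stress and 959 ± 321 CPM in Click-iT control (SD, n = 3 each). These groups overlapped, with 664, 599 and 595 CPM in stress libraries and 1010, 615 and 1251 CPM in control libraries.

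Other fits called some of these genes. Limma voom with library quality weights, chosen after seeing the data, gave 9 lower in Click-iT stress, against 11.4% of all genes, and 1 lower in recovery, against 1.66%. The authors' deposited table listed 12 lower in stress, against 7.96% of its genes, and for recovery 2 higher and 2 lower, against 16.6% and 6.57%. Mean normalised counts in the authors' deposited table matched, within 1% for 100% of genes, a joint fit of 18 libraries, the 9 Click-iT and the 9 WT ones, whereas the counts above come from the 9 Click-iT libraries alone. Depth differed between the groups: 1586873 to 2746277 gene counts in stress, 169760 to 441624 in recovery and 657891 to 1451741 in control, and its part in these estimates was not tested.

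Among the 15 R or T copies, 11 did not pass the filter on low counts in any set, with 0 to 56 counts over all 36 libraries. The largest of these was Prosalpha6T, with 27 of its 56 counts in 1 library, Click-iT stress replicate 3. It had 12 counts over the WT recovery libraries and 0 over the WT control libraries, and the authors' deposited table lists it there at a log2 fold change of 4.38 (adjusted p = 0.0165), a value that rests on a group without counts. The 4 copies that passed in some set were Rpt6R and Rpt3R, extra ATPase genes, Prosbeta2R2 and Rpt4R. Rpt6R (chr3R:30582198-30583697, minus strand) fell more than any ordinary subunit in the RNAi sets. It had 28.4, 27.8 and 27.5 CPM in Mock control, 11.7, 10.8 and 12.6 in Mock stress and 13.0, 13.9 and 13.5 in Mock recovery. In Rin cells it had 24.0, 29.1 and 30.1 CPM in control, 12.9, 15.2 and 13.1 in stress and 17.7, 16.5 and 13.6 in recovery. All treated libraries lay below their controls, with log2 fold changes in stress of -1.02 ± 0.10 in Rin and -1.25 ± 0.11 in Mock (edgeR adjusted p = 2.55e-08 and 3.52e-09).

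In WT cells the fold was smaller, the Mock and WT stress responses differing by -1.03 on the log2 scale (Mock minus WT, joint edgeR fit). There were 23.7, 21.9 and 25.4 CPM of Rpt6R in control, 18.3, 22.7 and 19.5 in stress and 19.8, 17.0 and 17.9 in recovery. Stress overlapped control there, at a log2 fold change of -0.23 ± 0.10 (edgeR adjusted p = 0.0431). That call held in 6 of 13 alternative fits, whose adjusted p ran from 0.00351 to 0.20, and the authors' deposited table gives 0.169. Recovery did not overlap control, at -0.37 ± 0.10. Rpt3R (chr3R:9754735-9756510, minus strand) fell in all 6 comparisons with control. It had 23.4, 23.6 and 22.8 CPM in Mock control, 15.5, 15.5 and 14.7 in stress and 15.5, 15.2 and 14.2 in recovery. Its log2 fold change lay between -0.64 in Mock recovery and -0.31 in WT stress. The WT stress call of Rpt3R held in 10 of 13 alternative fits, with adjusted p up to 0.11. The authors' deposited table gives 0.0900 for it. Prosbeta2R2 stayed low, at 2.20, 2.60 and 2.30 CPM in Mock stress against 1.25, 1.24 and 1.59 CPM in Mock control. It rose in Mock stress, Rin stress and Rin recovery by 0.82, 0.70 and 0.65 on the log2 scale. These calls held in 13, 10 and 6 of 13 alternative fits, with adjusted p up to 0.047, 0.084 and 0.22. The authors' deposited tables give 0.0436, 0.0641 and 0.0904. Rpt4R, at most 1.49 CPM in any library, was tested in the RNAi sets alone and passed in none of their comparisons between treatments. Of 9 testis and germline markers, bam averaged 129 CPM in WT control and the other 8 were under 1 CPM there. These copies resemble their parent genes, and how reads shared between them were counted is not given in the sources used here.

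Both polyubiquitin genes had larger fold changes than any proteasome subunit gene in recovery. Among 12 genes of ubiquitin supply and delivery, 7 rose and 4 fell in Rin recovery, 5 and 3 in Mock recovery and 5 and 3 in WT recovery. The shares of all genes were 35.2% and 34.3% in Rin, 33.1% and 32.8% in Mock and 35.2% and 33.5% in WT recovery, so the Mock and WT counts lay near them. The list's median log2 fold change was 0.26 in Rin, 0.03 in Mock and 0.05 in WT recovery. Ubi-p63E, a polyubiquitin gene, had 277, 292 and 302 CPM in WT control, 511, 534 and 531 in stress and 922, 941 and 975 in recovery, without overlap. Its log2 fold change in recovery was 1.57 ± 0.09 in Rin, 1.61 ± 0.09 in Mock and 1.70 ± 0.04 in WT cells. The second polyubiquitin gene, Ubi-p5E, rose by 1.53 in Rin, 1.57 in Mock and 1.61 in WT recovery, and RpL40, a ubiquitin fused to a ribosomal protein, by 1.09, 0.89 and 0.62. The autophagy adaptor ref(2)P had 639, 663 and 655 CPM in WT recovery, against 229, 232 and 217 CPM in WT control, and rose by 0.77 in Rin, 0.75 in Mock and 1.53 in WT cells on the log2 scale.

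Of 5 regulators of proteasome genes, 3 rose and 2 fell in Rin and in Mock recovery, and 3 rose and 0 fell in WT recovery, against the all-gene shares just given. The transcription factor cnc had 203, 200.1 and 207 CPM in WT control, 272, 236 and 233 in stress and 329, 333 and 325 in recovery, and rose in recovery by 0.46 in Rin, 0.57 in Mock and 0.69 in WT cells. Its partner maf-S rose by 0.74, 0.46 and 0.42 in Rin, Mock and WT recovery. Keap1, the adaptor that leads cnc to degradation, had log2 fold changes of -0.43 in Rin and -0.36 in Mock recovery and 0.39 in WT recovery, all past the test. Pngl, the peptide N-glycanase, had 0.28 in Rin and 0.31 in Mock recovery, both past the test, and -0.06 in WT recovery, which was not. The median log2 fold change of these 5 genes was 0.28 in Rin, 0.31 in Mock and 0.39 in WT recovery. That of the 31 subunit genes was 0.19 in Rin, 0.04 in Mock and -0.04 in WT recovery.

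Assembly and associated factors were mixed, with 4 of 10 higher and 2 lower in Rin recovery, 4 and 4 in Mock recovery and 1 and 5 in WT recovery. In all genes these shares were 35.2% and 34.3%, 33.1% and 32.8%, and 35.2% and 33.5%. Medians on the log2 scale were 0.09 in Rin, 0.07 in Mock and -0.12 in WT recovery. CG8858 had the lowest log2 fold change of this list in recovery in all 3 sets. It had 102, 100.2 and 105 CPM in WT recovery against 174, 190.1 and 187 CPM in WT control. It fell in recovery to a log2 fold change of -1.63 ± 0.09 in Rin, -1.54 ± 0.09 in Mock and -0.85 ± 0.05 in WT cells. CG12096, CG12321 and Usp14, a deubiquitinating enzyme of the proteasome, had log2 fold changes of -0.35, -0.65 and -0.23 in WT recovery, all past the test. The library kit does not mark strand, and CG12096 shares 27.2% of its exonic bases with Lgr4 on the other strand. Pomp, also of this list, shares 40% with vari, Pngl 14.4% with Strica and Rpt6 13% with CG1801, again on the other strand. Smaller overlaps of this kind occur in other genes reported here.

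**Figure D5:**
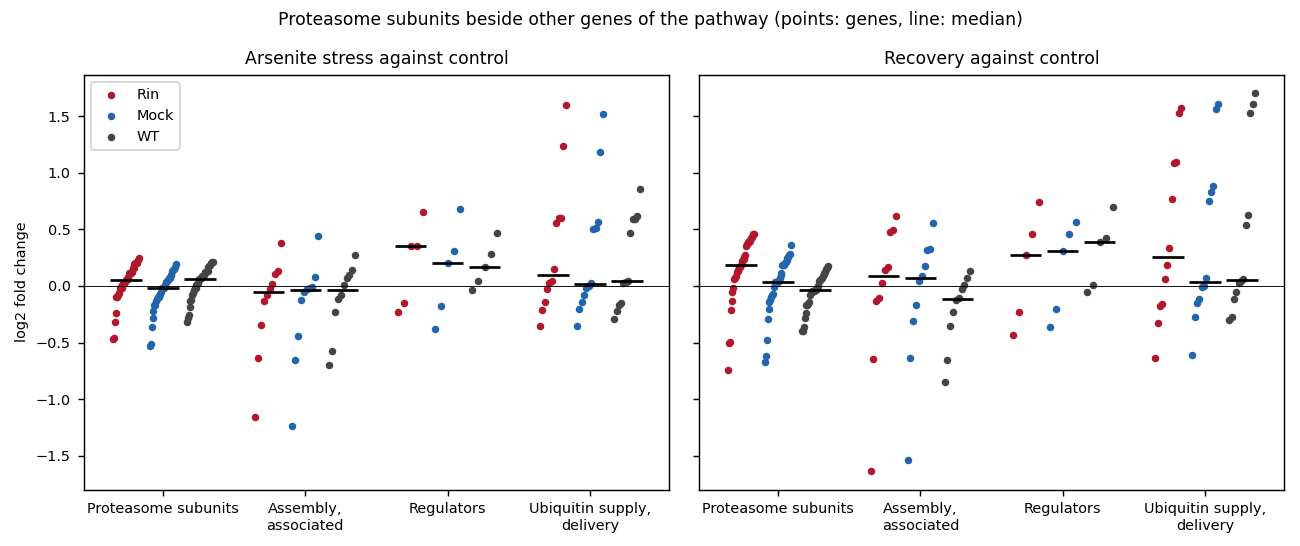
Log2 fold change against control in stress (left) and recovery (right) of the 31 proteasome subunit genes, 10 assembly and associated genes, 5 regulators and 12 genes of ubiquitin supply and delivery, for Rin, Mock and WT cells. Points are genes and lines are medians. The subunit genes stay within a narrow band while single ubiquitin genes exceed 1.5 in recovery.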

How the data were processed

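RNA was sequenced from 36 S2R+ libraries as single-end reads with a TruSeq kit that does not mark strand. The deposited files give raw counts per gene symbol; STAR 2.5.3, HTSeq, DESeq2 and the build dm6 are named, per the submitters' processing notes, and counting settings are not given in the sources used here. Lines that name no gene held 13.2% to 19.6% of reads in poly(A) and 79.9% to 95.4% in Click-iT libraries and were left out. The authors' deposited comparison tables give log2 fold changes with standard errors, test statistics (a score), p-values and a mean normalised signal. When recomputed, that signal matched WT scaled on its 9 libraries, the RNAi sets on 18, and Click-iT jointly with WT, also on 18. The match concerns the mean signal only, and the authors' model is not given in the sources used here.

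Counts were fitted with edgeR 4.0.16 (R 4.3.3; quasi-likelihood, TMM, filterByExpr, group means, two-sided) in 3 fits, of 9 WT, 18 Mock and Rin and 9 Click-iT libraries, testing 8123, 8707 and 6558 genes, with Benjamini-Hochberg adjustment over all of them. A gene was called at an adjusted p under 0.05. Exonic lengths matched 95.1% of symbols. DESeq2 1.42.0 and limma 3.58.1 served as alternatives, and the procedure was tested on simulated data. Intervals are 95%.

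Members and gene lists were chosen with earlier results of these data known. For each role, the genes with the highest and lowest fold change in WT stress and WT recovery were named, with every copy passing a filter, rin, cnc and up to 4 genes per list with the largest change in WT recovery; others are exceptions to a count. The Mock minus WT comparison, the length offset and voom were added after seeing the data. Genome sequence was not used here.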

Additional observations from a re-analysis of the deposited data

Results flagged for a closer look

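The responses of Mock and WT cells differed for several proteasome genes in a joint edgeR fit of 27 poly(A) libraries, a comparison chosen after both responses had been seen. For the stress response 5 of 31 members passed, all lower in Mock. That is 16.1% of them, the share of all genes being 16.3% lower and 10.9% higher, so it does not set the proteasome genes apart. The differences of log2 fold changes, Mock minus WT, were -0.24 for Prosbeta7, -0.26 for Rpn2, -0.27 for Rpn5, -0.23 for Rpn6 and -0.26 for Rpt1. The copy Rpt6R differed by -1.03.

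For the recovery response 11 of 31 passed, 8 higher in Mock (25.8%) and 3 lower (9.68%), against 19.7% and 23.3% of all genes. This fit was not repeated without single libraries. Higher in Mock were Prosalpha4 by 0.24, Prosalpha5 by 0.44, Prosbeta1 by 0.30, Prosbeta2 by 0.33, Prosbeta3 by 0.37, Rpn11 by 0.32, Rpn9 by 0.21 and Rpt5 by 0.25. Lower in Mock were Rpn2 at -0.23, Rpn5 at -0.18 and Rpn6 at -0.18, and Rpt6R at -0.64. Mock treatment, culture and experiment cannot be told apart, and the summed hemocyte-like markers also differed, at 1050.5 CPM in Mock control and 4782 CPM in WT control.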

How the results depend on the processing

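Scaling to total counts moved most counts of called members. They became 3 higher and 11 lower in WT stress, 0 and 23 in WT recovery, 26 lower in WT recovery against stress, 0 and 12 in Rin stress, 0 and 19 in Mock stress, 0 and 3 in Mock recovery against stress, 0 and 18 in Mock recovery against control, 2 and 12 in Rin recovery and 2 higher in Rin recovery against stress. With the length offset they were 2 lower in WT recovery against stress, 2 higher in Mock stress, 3 and 11 in Mock recovery, 0 higher in Mock recovery against stress, 6 and 8 in Rin recovery, 0 and 0 in Rin recovery against stress and 1 higher for Rin against Mock in recovery. DESeq2 gave 2 lower in WT recovery against stress, 1 lower in Mock recovery against stress and 1 higher for Rin against Mock in recovery. RLE size factors gave 2 higher in Mock stress. Fitting only the groups compared gave 0 higher and 4 lower in Mock stress, 0 higher in Mock recovery against stress and 10 higher in Rin stress. Without a filter, 1 was lower in Rin recovery against stress and 1 higher for Rin against Mock in recovery. Voom weights gave 9 lower in Click-iT stress and 1 lower in Click-iT recovery.

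Leaving out 1 replicate gave 3 to 6 higher in WT recovery, 3 to 12 lower in WT recovery against stress, 0 to 3 higher and 4 to 9 lower in Mock stress, 6 to 11 higher in Mock recovery, 0 to 8 higher in Mock recovery against stress, 1 to 6 higher in Rin stress, and 3 to 10 higher and 1 to 2 lower in Rin recovery against stress.

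Among the genes chosen for naming by role, some signs turned under total counts. In WT recovery these were Prosbeta7 (-0.021), Rpt3 (-0.063), Rpn13 (-0.069) and Rpn6 (-0.029). In Mock stress they were Rpt3 (-0.16) and Rpn13 (-0.17). Mock recovery had Prosalpha2 (-0.057), Prosalpha3 (-0.21), Prosbeta7 (-0.030), Rpt3 (-0.19), Rpt5 (-0.21), Rpt4 (-0.056) and Rpn13 (-0.20). Rin recovery had Prosalpha6 (-0.060), Prosalpha3 (-0.10), Rpt3 (-0.022), Rpt5 (-0.21), Rpt4 (-0.044) and Rpn13 (-0.0080). With the length offset signs turned for Prosalpha2 (-0.046) and Prosalpha3 (-0.18) in Mock recovery. They also turned for Prosalpha2 (-0.0046), Prosalpha6 (-0.058) and Prosalpha3 (-0.14) in Rin recovery and Prosalpha3 (-0.0011) in Rin recovery against stress. Members called higher outside that choice also had negative lowest estimates over the alternative fits. These included Prosalpha7 (-0.049) in WT recovery, and Prosbeta2 (-0.013), Prosbeta4 (-0.034) and Prosbeta6 (-0.038) in Mock recovery. In Rin recovery they included Rpn8 (-0.11), Rpn10 (-0.050) and Rpn11 (-0.15). The causes were not tested. The replicate number as a block kept every count within 1.5 times, with 17 higher in Rin recovery and 11 higher in Mock recovery. Replicate numbers showed no pairing at the median. Same-numbered libraries of different groups had median correlations of -0.01 in WT, 0.02 in Mock and Rin and 0.01 in Click-iT. For replicates 1, 2 and 3, same-numbered Mock and Rin libraries correlated at 0.065, 0.18 and 0.081 in stress. The values were 0.20, 0.077 and 0.073 in recovery and -0.042, -0.065 and -0.034 in control. Different-numbered Mock and Rin pairs ran from -0.17 to 0.12 in stress and -0.15 to 0.082 in recovery. A pairing of Mock with Rin libraries was not tested beyond the block. In Click-iT stress 1 of 31 intervals lay within 1.5-fold of no change, and the others reach beyond it.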
